A study of Mus musculus with 6 samples.

Results

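The Fos and Jun family genes that encode the subunits of the transcription factor AP-1 were followed in cultured mouse hippocampal neurons after a short rise in cyclic AMP (cAMP). The 7 members, Fos, Fosb, Fosl1, Fosl2, Jun, Junb and Jund, were taken by gene symbol from the 37411 gene rows of the deposited count table. The rule uses symbols only, but the family was picked with earlier results of these data known. All 7 passed the filter on low counts, as did 16233 genes in all. The cultures came from newborn (P0) pups of the outbred CD-1 IGS strain and had been kept for 16 days in vitro. Treatment lasted 30 min and was either 50 µM forskolin, which switches on adenylyl cyclase, the enzyme that makes cAMP, or the solvent dimethyl sulfoxide (DMSO) as control. The DMSO group had 3 libraries (1, 2 and 3) and the forskolin group 3 (4, 5 and 6). The labels do not say whether the libraries came from separate litters or culture days, so the p-values measure only the spread between these libraries.

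AP-1 is a dimer of basic leucine zipper (bZIP) proteins. Jun proteins pair with each other or with Fos proteins, whereas Fos proteins need a partner such as Jun to bind DNA, so the relative supply of the subunits bears on which dimers can form. In neurons Fos, Fosb and Junb are classic immediate early genes. Their transcription starts within minutes of synaptic activity or a rise in cAMP or calcium, without new protein synthesis, through factors such as CREB bound to cAMP response elements (CREs) and SRF bound to serum response elements. Jund is commonly described as the more constitutively expressed Jun gene.

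The upstream sequences of the 3 members with the largest fitted increases (Fos, Fosb and Junb) and of Jun are shown because CREs lie close to the start of many cAMP-responsive genes. Values of Junb and Jun overlapped between the groups, and neither passed the test described below. The genes shown were picked by their values, so a difference between their windows is no test. Each is the 250 bases before the RefSeq start (build GRCm38.p6), 5′ to 3′ on the gene's strand. Capitals mark every copy of the core CRE sequence TGACG on either strand. The windows are chr12:85473640-85473889 on the plus strand for Fos, chr7:19310046-19310295 on the minus strand for Fosb, chr8:84978749-84978998 on the minus strand for Junb and chr4:95052223-95052472 on the minus strand for Jun.
Fos: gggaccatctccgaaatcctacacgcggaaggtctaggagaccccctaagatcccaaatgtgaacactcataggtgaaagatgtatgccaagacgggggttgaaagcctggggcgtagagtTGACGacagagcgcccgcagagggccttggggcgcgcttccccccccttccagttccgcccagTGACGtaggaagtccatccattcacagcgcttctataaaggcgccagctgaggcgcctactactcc
Fosb: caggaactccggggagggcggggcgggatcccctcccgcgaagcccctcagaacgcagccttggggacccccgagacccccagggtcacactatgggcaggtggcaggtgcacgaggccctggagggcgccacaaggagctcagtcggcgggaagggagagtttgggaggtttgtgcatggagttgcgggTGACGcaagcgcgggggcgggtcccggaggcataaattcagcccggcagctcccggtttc
Junb: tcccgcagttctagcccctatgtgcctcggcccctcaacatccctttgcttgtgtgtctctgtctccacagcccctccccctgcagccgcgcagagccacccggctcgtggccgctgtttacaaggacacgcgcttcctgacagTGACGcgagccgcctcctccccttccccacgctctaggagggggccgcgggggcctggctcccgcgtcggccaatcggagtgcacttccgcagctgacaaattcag
Jun: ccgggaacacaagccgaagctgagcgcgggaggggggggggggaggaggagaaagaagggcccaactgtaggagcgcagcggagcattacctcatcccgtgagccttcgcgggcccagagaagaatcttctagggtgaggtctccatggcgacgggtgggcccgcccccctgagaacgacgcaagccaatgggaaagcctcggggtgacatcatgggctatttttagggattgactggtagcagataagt

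The Fos window held 2 copies of TGACG, at bases -129 to -125 and -66 to -62 counted from the start. The Fosb window held 1 copy at -60 to -56, and the Junb window held 1 at -106 to -102. The Jun window had none, nor had those of Fosl2 and Jund. The RefSeq start used for Jund lies 1210 bases upstream of the GENCODE gene start given below, and that for Fosl2 lies 671 bases inside the GENCODE gene, so these 2 windows do not end at those starts. For Fos, Fosb, Jun and Junb the starts are at most 30 bases apart. Of 32851 windows of the same length, 17.8% held TGACG on either strand. The full palindrome TGACGTCA (1.55% of windows), the AP-1 element TGANTCA (6.75%) and the CArG box bound by SRF (1.47%) were in none of the 6 member windows that matched. These are matches of letters within 250 bases, with no measurement of binding. Bases outside the windows were not searched, so absence from a window does not show that a gene lacks the element.

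The members lie at 7 separate loci of 6 chromosomes in GRCm38, by the GENCODE M21 annotation. Fos is at chr12:85473890-85477273 (plus strand), Fosb at chr7:19302696-19310051 (minus), Fosl1 at chr19:5447547-5455946 (plus) and Fosl2 at chr5:32135801-32157842 (plus). Jun is at chr4:95049034-95052222 (minus), and Junb at chr8:84974484-84978718 (minus) and Jund at chr8:70698949-70700616 (plus) share a chromosome. Jun and Jund have 1 annotated transcript each and Fosb has 7. GC content of the longest transcript ran from 51.9% for Fos to 67.1% for Jund.

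Total counts ran from 28342764 to 47548379 per library. The libraries did not fall cleanly into their groups. The 12 microglia markers summed to 23.0 to 35.3 CPM (counts per 1000000, with the library total scaled by TMM factors) in the DMSO libraries, to 227 and 376 CPM in forskolin libraries 4 and 5, and to 25.1 CPM in forskolin library 6. None of the 12 was at 0 in all 3 DMSO libraries. The 14 neuron markers, all of them detected, summed to 4130 to 5146 CPM with DMSO, to 3037 and 3345 CPM in libraries 4 and 5, and to 4550 CPM in library 6. Singly, 7 of the 14 were below every DMSO library in each forskolin library, library 6 included, and 0 were above in each. Of all tested genes, 16.2% lay below in that way and 10.2% above. The 12 astrocyte markers summed to 8920 to 9906 CPM over all 6 libraries, but within the sum Aqp4 was higher in libraries 4 and 5 (674 and 861 CPM) than in the other libraries (212 to 312 CPM) and Glul lower (866 and 903 against 1495 to 1681 CPM), both chosen after their values were seen. The 10 vascular and fibroblast markers summed to 129 to 423 CPM. The 12 oligodendrocyte lineage markers summed to 835 to 936 CPM with DMSO, to 1138 and 1623 CPM in libraries 4 and 5 and to 652 CPM in library 6. Mitochondrially encoded genes took 14.7 to 24.6% of counts with DMSO and 27.8 to 34.6% with forskolin. Of the marker genes, 2 neuron markers passed edgeR's test as lower (Rbfox3 and Grin1, GC content 58.6% and 59.4%) and 0 of any other type passed. With each library's trend on gene GC content removed, edgeR passed 0 of all tested genes. Of 11 tested microglia markers, 10 were higher at an unadjusted p-value under 0.05 and by DESeq2. Over all tested genes, edgeR passed 1.34% as lower, 22.3% had an unadjusted p-value under 0.05 in either direction, and DESeq2 passed 4.9% as higher. The members' values are therefore given library by library, and where the result turns on it for library 6 alone against DMSO and without library 6.

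Forskolin cultures held more Fos and Fosb transcript than DMSO cultures, and these were the 2 of 7 members that passed edgeR's quasi-likelihood test at an adjusted p-value under 0.05. Of all tested genes 1.51% passed, 0.172% as increases and 1.34% as decreases. Fosl2 lay higher in each forskolin library but did not pass. Junb was high in 2 forskolin libraries and low in the other, Jund was lower in each, and Jun and Fosl1 showed no difference beyond the error. The unadjusted p-value was under 0.05 for 4 members (Fos, Fosb, Fosl2 and Jund) and for 22.3% of all tested genes. The forskolin values all exceeded the DMSO values for 3 of the 7 members (Fos, Fosb and Fosl2), which held for 10.2% of all tested genes. They all lay below for 2 (Fosl1 and Jund), which held for 16.2%. The members' median log2 fold change was 0.74, against 0.02 over all tested genes.

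**Figure D1:**
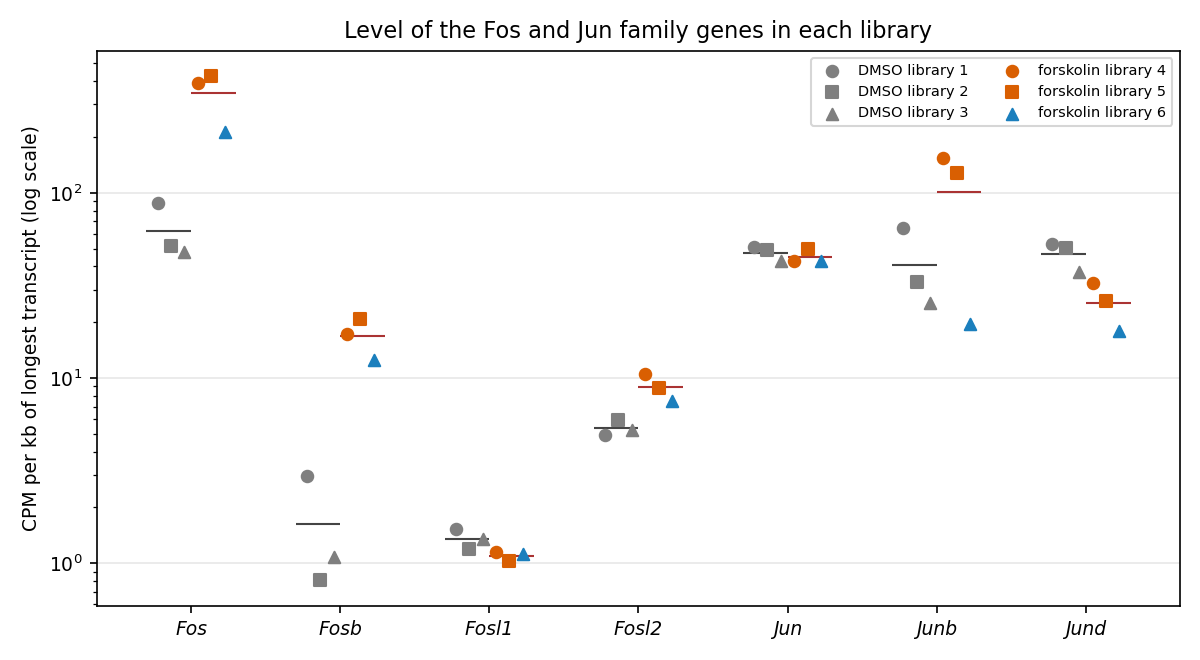
Level of each family member in each of the 6 libraries, as CPM per kb of the longest annotated transcript on a log axis. Grey points are DMSO libraries, orange points forskolin libraries 4 and 5, blue triangles forskolin library 6, and the short lines are the group means (n = 3). Fos and Fosb lie above all DMSO points in every forskolin library, whereas Junb in library 6 lies at 19.5, under the lowest DMSO value of 25.5.

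Fos, the founding member of the family, stood at 186, 109 and 100.5 CPM in the DMSO cultures (libraries 1 to 3 in order) and at 830.1, 901 and 447 CPM after forskolin (libraries 4 to 6). The groups did not overlap, and the lowest forskolin value was above the highest DMSO value, which was that of library 1. The increase was 5.51-fold (log2 fold change 2.46 ± 0.36 SE, 95% interval 1.61 to 3.31, edgeR adjusted p = 0.0376). Library 6 alone against the 3 DMSO libraries gave a log2 fold change of 1.80 (95% interval 0.99 to 2.61, edgeR adjusted p = 0.0804). That fit has a single forskolin library, which is assumed to vary as the DMSO libraries do. In library 6 the summed microglia markers were at 25.1 CPM, within the DMSO range of the sum. Singly, Cx3cr1 (1.16 CPM) and Aif1 (2.03 CPM) were above every DMSO library there, and P2ry12 (0.239 CPM) and Tmem119 (0.328 CPM) below every DMSO library. The part of microglia in the Fos values was not tested. In bulk RNA, more cells of a type and more RNA per cell cannot be told apart.

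Fosb, whose shorter splice form deltaFosB accumulates with repeated stimulation, showed the largest fold change of the family. With DMSO it drew 360, 93 and 146 counts, and with forskolin 3060, 2682 and 1575 counts. In CPM it rose from 6.13 ± 4.45 to 63.6 ± 15.9 (SD, n = 3), with all forskolin libraries above all DMSO libraries. The increase was 10.4-fold (log2 fold change 3.38 ± 0.52 SE, 95% interval 2.15 to 4.60, edgeR adjusted p = 0.0402). In library 6 alone the log2 fold change against DMSO was 2.97 (95% interval 1.47 to 4.48, edgeR adjusted p = 0.104). Counts per gene do not separate Fosb from deltaFosB.

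The 2 calls depended on which libraries entered the fit. Without library 6 both kept their direction with smaller adjusted p-values (edgeR, 0.00309 for Fos and 0.00557 for Fosb). Without any other single library neither passed, with adjusted p-values of 0.130 to 0.299 for Fos and 0.0852 to 0.288 for Fosb. In each of those 5 fits edgeR passed 0 genes of the whole table, with 1945 to 3216 at an unadjusted p-value under 0.05. The log2 fold change stayed at 2.29 or more for Fos and at 3.06 or more for Fosb in those fits. When each library's trend on gene GC content was removed, the log2 fold changes were 2.56 and 3.62 and the edgeR adjusted p-value was 0.161 for both.

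Fosl2, which encodes the Fos-related antigen Fra-2, measured 32.2, 38.8 and 34.0 CPM under DMSO, against 68.7, 57.8 and 48.9 CPM under forskolin. Each forskolin library was above each DMSO library, by a much smaller margin than for Fos. The 1.67-fold difference did not pass the test on 6 libraries (log2 fold change 0.74 ± 0.15 SE, 95% interval 0.38 to 1.10, edgeR adjusted p = 0.0733). It passed without library 6 (log2 fold change 0.84, edgeR adjusted p = 0.00586) and with DESeq2 on all 6 libraries (0.75, adjusted p = 0.00124). DESeq2 passed 4 members in all (Fos, Fosb, Fosl2 and Jund), where it passed 10.9% of all tested genes.

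Fosl1, which encodes Fra-1, drew few counts, with 91, 68 and 90 under DMSO and 101, 65 and 70 under forskolin. After scaling it was 2.53 ± 0.305 CPM with DMSO and 2.05 ± 0.123 CPM with forskolin (SD, n = 3). The log2 fold change was -0.31 (95% interval -0.83 to 0.22, edgeR adjusted p = 0.435), so a difference of this size was not detectable, and the interval leaves out increases as large as that of Fosl2. Removal of the GC trend changed the sign (0.09, edgeR adjusted p = 0.846). The 3′ part of Fosl1 overlaps Ccdc85b on the opposite strand in GENCODE. Ccdc85b had 939, 748 and 552 counts with DMSO and 293, 132 and 30 counts in libraries 4, 5 and 6. Whether the counting used strand is not given in the sources used here, so reads of the overlap cannot be assigned with certainty.

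Among the Jun genes, Junb divided the forskolin libraries. DMSO cultures held 116, 59.4 and 46.1 CPM, forskolin libraries 4 and 5 held 278 and 232 CPM, and library 6 held 35.4 CPM. Libraries 4 and 5 were above every DMSO library and library 6 was below every DMSO library, so the groups overlapped. Over the 6 libraries the log2 fold change was 1.30 ± 0.72 SE (95% interval -0.41 to 3.0, edgeR adjusted p = 0.321). Without library 6 it was 1.77 (95% interval 0.88 to 2.65, edgeR adjusted p = 0.0151), and library 6 alone against DMSO gave -1.03 (95% interval -2.32 to 0.26, edgeR adjusted p = 0.418).

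Marker sums moved with this split of Junb. Libraries 4 and 5, where Junb was high, were those with 227 and 376 CPM of microglia markers, higher oligodendrocyte marker sums and lower neuron marker sums. The longest Junb transcript has a GC content of 62.6%, the second highest of the family. With the GC trend removed, the log2 ratio of Junb to the DMSO mean was 2.40 and 2.27 in libraries 4 and 5 and -0.08 in library 6, in place of 1.91, 1.65 and -1.07. The corrected values of libraries 4 and 5 were still above every DMSO library (-0.55 to 0.63), whereas that of library 6 was then within the DMSO range. The part of these cell types in the Junb values was not tested. Junb also overlaps Prdx2 on the opposite strand at its 3′ end, and Prdx2 itself was at 206 ± 10.3 CPM with DMSO and 182 ± 28.6 CPM with forskolin (SD, n = 3). Its log2 fold change was -0.18 (edgeR adjusted p = 0.475).

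Jun, which encodes c-Jun, the founding Jun protein, had no such split. Its level was 162, 157 and 137 CPM with DMSO, set beside 136, 159 and 137 CPM with forskolin. The groups overlapped almost entirely. The log2 fold change was -0.08 with a 95% interval of -0.37 to 0.22 (edgeR adjusted p = 0.743), an interval that leaves out increases as large as those of Fos, Fosb or Fosl2. After GC trend removal it was 0.15 (95% interval -0.12 to 0.42, edgeR adjusted p = 0.553).

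Jund was lower in every forskolin library. Controls gave 87.7, 84.3 and 61.9 CPM and forskolin libraries 4 to 6 gave 54.3, 43.4 and 30.0 CPM, the lowest value again being that of library 6. The 1.83-fold lower level did not pass the test on 6 libraries (log2 fold change -0.87 ± 0.24 SE, 95% interval -1.44 to -0.30, edgeR adjusted p = 0.127). It passed with DESeq2 (-0.86, adjusted p = 0.0164) and without library 6 (-0.69, edgeR adjusted p = 0.0305). Its transcript has the highest GC content of the family, 67.1%. Once the GC trend was taken out, the log2 fold change was 0.11 (95% interval -0.15 to 0.37, edgeR adjusted p = 0.634), and the log2 ratios to the DMSO mean in libraries 4, 5 and 6 became 0.18, 0.09 and 0.05. The lower Jund level was therefore present only without that correction.

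Without library 6, edgeR passed 5 of the 7 members (Fos, Fosb, Fosl2 and Junb higher, Jund lower), beside 33.6% of all genes tested. With the GC trend removed as well it passed 4 (Fos, Fosb, Fosl2 and Junb, all higher), beside 32.0% of genes. In library 6 alone against DMSO it passed 0 members and 0.555% of genes, and 4 members and 14.9% of genes had an unadjusted p-value under 0.05. With all 6 libraries and the GC trend removed it passed 0 members and 0.0% of genes. On all 6 libraries limma-voom with library quality weights passed 5 members, beside 41.9% of genes, and edgeR with upper-quartile factors passed 1 (Fos), beside 0.628%.

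**Figure D2:**
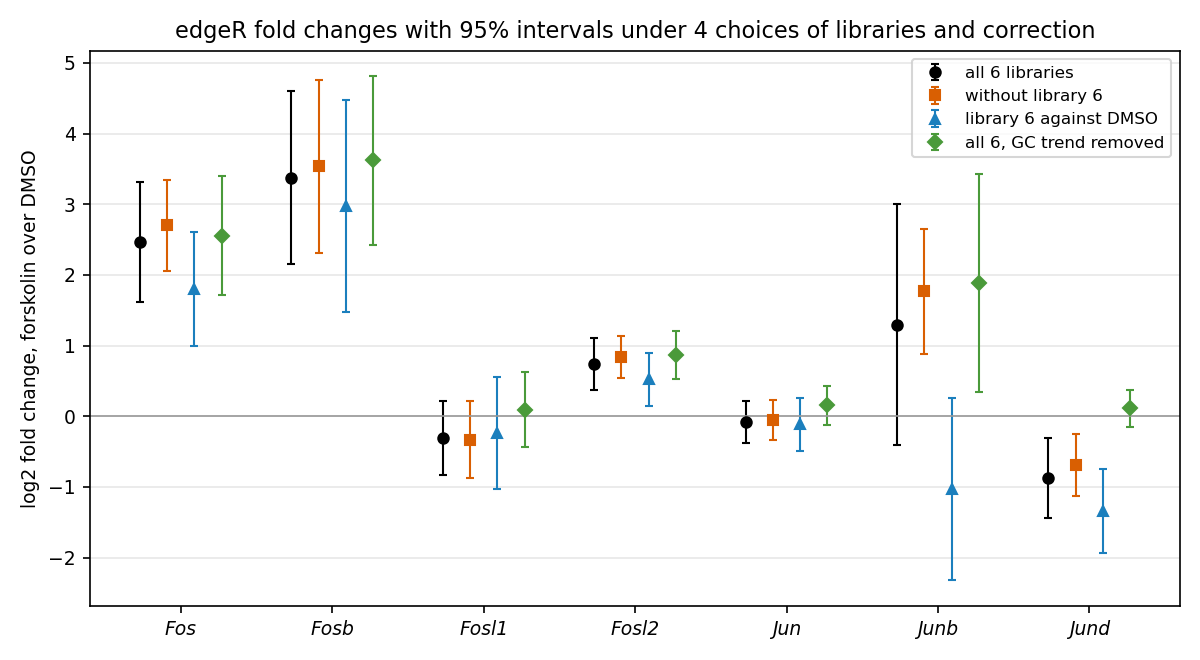
log2 fold change of each member, forskolin over DMSO, from edgeR with 95% intervals, for all 6 libraries (black), without library 6 (orange), for library 6 against DMSO (blue) and for all 6 libraries with the GC trend removed (green). Fos, Fosb and Fosl2 keep positive intervals in all 4 fits, Junb runs from -1.03 to 1.88, and Jund moves from -0.87 to 0.11 when the GC trend is removed.

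Levels of different genes were compared per length, as CPM per kb of the longest annotated transcript. In the DMSO cultures Fos (62.5 ± 22.3), Jun (47.6 ± 4.15), Jund (46.7 ± 8.39) and Junb (40.9 ± 20.7, SD, n = 3) formed an upper tier, in which neighbours in the order had overlapping ranges. Fosl2 (5.36 ± 0.525), Fosb (1.62 ± 1.18) and Fosl1 (1.36 ± 0.164) lay well below, the last pair with overlapping ranges. The tiers depended on the length used. With median transcript lengths Fos under DMSO (123 to 228 CPM per kb) was above the highest value of any Jun gene (101), and Fosl1 (5.10 ± 0.615) was above Fosb (1.69 ± 1.23, SD, n = 3) in each DMSO library. With forskolin Fos (344 ± 116) was above every other member in all 3 libraries. Junb (100.5 ± 71.3) came next on average but overlapped Jun (45.1 ± 4.15), since Junb was under Jun in library 6. Jund (25.5 ± 7.28) and Fosb (16.8 ± 4.21) had overlapping ranges, Fosl2 was at 8.95 ± 1.52 and Fosl1 at 1.10 ± 0.0660. Per kb of the longest transcript, Fosb was below Fosl2 with DMSO and above it with forskolin, and Junb was below Jun and Jund on average with DMSO and above both with forskolin. With median transcript lengths mean Junb was already above Jun and Jund with DMSO (64.3, 47.6 and 46.7 CPM per kb). Fosb with forskolin was then at 17.9, 21.7 and 12.9 CPM per kb and Fosl2 at 19.8, 16.6 and 14.1, so Fosb was higher on average (17.5 and 16.8) but in library 5 only. The isoform actually made is not known from counts per gene, so these levels depend on the transcript length used.

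The share of each member in the summed level of all 7 does not depend on how libraries are scaled. Fos made up 33.2, 26.9 and 29.6% of the pool under DMSO, and 60.4, 64.5 and 67.7% of it under forskolin. Fosb made up 0.738 ± 0.355% with DMSO and 3.25 ± 0.669% with forskolin (SD, n = 3). Jun had 23.8 ± 4.09% of the pool with DMSO and 9.25 ± 3.86% with forskolin, although its level in CPM overlapped between the groups. Fosl2 is a case of a higher level with a share that was not higher, at 2.73 ± 0.759% and 1.78 ± 0.544%, and Fosl1 held 0.680 ± 0.142% and 0.229 ± 0.111%. The size of these differences depended on the length used. The forskolin minus DMSO difference for Fosb was 2.51 percentage points with the longest transcript, 1.12 with median lengths and 4.18 with no length. For Fosl1 these were -0.45, -1.17 and -0.35 points, and for Fosl2 -0.95, -1.61 and -2.50 points. For Junb they were -2.68, -6.26 and -1.56 points and for Jund -18.2, -12.0 and -12.9 points. With the longest transcript, the Junb difference changed sign without library 6 (2.40 points) and with the GC trend removed (0.775 points).

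The shares within a library are tied, since a larger Fos share leaves less for the other members even where their levels are unchanged. The tests of the 7 shares are therefore not separate results. For Fos, Fosb, Fosl1, Jun and Jund the shares of the groups did not overlap, and each gave an exact two-sided permutation p of 0.1 (0.14 adjusted over the 7 members). With 3 libraries against 3 that is the smallest p-value the test can give, so it cannot reach 0.05. Fosl2 (exact permutation p = 0.2, adjusted 0.233) and Junb (exact permutation p = 0.8, adjusted 0.8) overlapped between the groups. Junb held 24.3, 17.1 and 15.9% with DMSO, 23.6 and 19.4% in libraries 4 and 5 and 6.23% in library 6. Jund held 23.1 ± 3.24% with DMSO and 4.89 ± 0.912% with forskolin, or 18.8 and 6.60% when the GC trend was removed.

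Per kb of the longest transcript, the summed Fos genes outweighed the summed Jun genes in every forskolin library and in no DMSO library. Their ratio per length was 0.582, 0.449 and 0.524 under DMSO and became 1.85, 2.24 and 2.90 under forskolin (exact two-sided permutation p = 0.1, the smallest possible). With median transcript lengths the ratio was 1.20, 0.992 and 1.16 under DMSO and 3.35, 4.14 and 6.33 under forskolin, so which family was the larger under DMSO depended on the length used, while the forskolin ratios stayed above all DMSO ratios. Library 6 had the highest ratio. The 4 Fos genes together went from 70.8 ± 23.3 to 371 ± 121 CPM per kb, while the 3 Jun genes stood at 135 ± 31.1 and 171 ± 79.6 CPM per kb (SD, n = 3; exact permutation p = 0.5 for the Jun genes). After GC trend removal the log2 ratio of Fos to Jun genes was -0.70 with DMSO and 0.96 with forskolin, in place of -0.96 and 1.20.

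**Figure D3:**
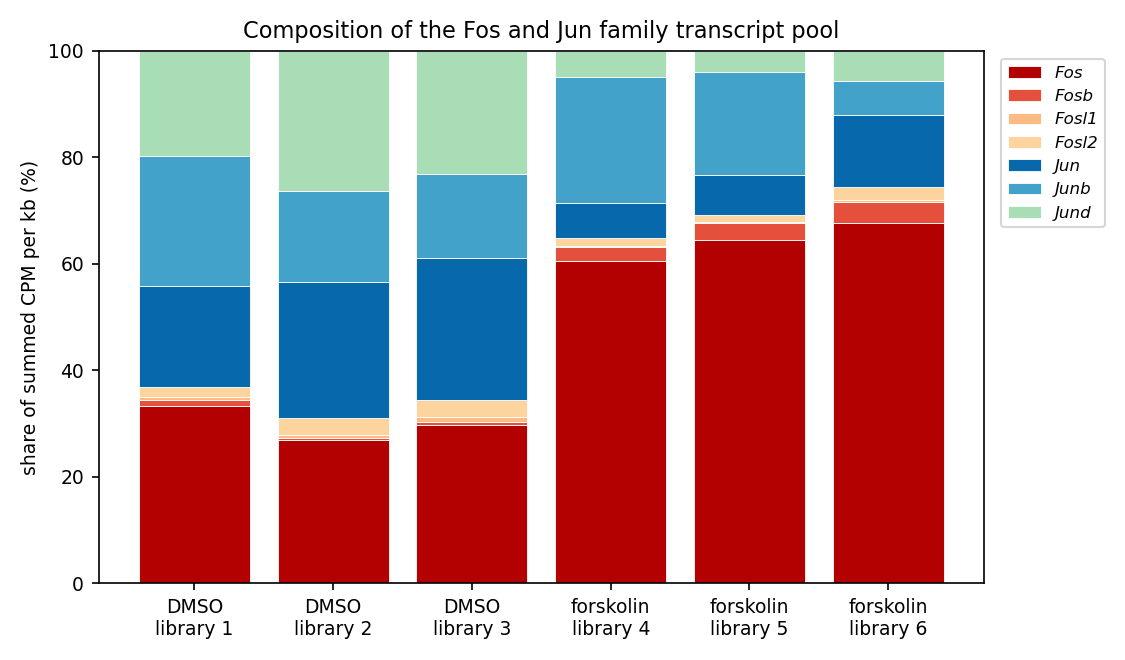
Share of each member in the summed CPM per kb of the 7 genes, in percent, 1 stacked bar per library. Fos genes are in reds and Jun genes in blues and green. Fos takes 26.9 to 33.2% of the DMSO bars and 60.4 to 67.7% of the forskolin bars, and Junb shrinks to 6.23% in library 6.

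Other bZIP proteins can take the place of a Fos or Jun partner. Of 14 such genes listed, 11 were tested (Batf, Batf2 and Batf3 were too low), 1 passed as higher and 0 as lower, with a median log2 fold change of 0.01. The edgeR count was 2 higher and 1 lower at an unadjusted p-value under 0.05, beside 22.3% of all tested genes in either direction. DESeq2, which passed 4.9% of all genes as higher and 6.03% as lower, passed 2 higher and 1 lower. The gene that rose was Maff, a small Maf protein without an activation domain, from 4.17 to 54.4 CPM on average (log2 fold change 3.71, edgeR adjusted p = 0.0314), with 26.6 CPM in library 6. Atf3, a stress-induced partner of Jun proteins, was at 8.80, 4.59 and 5.61 CPM with DMSO and 31.5, 36.1 and 15.0 CPM with forskolin, above all DMSO libraries in each, but did not pass (log2 fold change 2.12, edgeR adjusted p = 0.0598). Jdp2, a repressive Jun partner, was lower in each forskolin library (log2 fold change -0.64, edgeR adjusted p = 0.0885), and Mafg was at -0.22 (edgeR adjusted p = 0.234). After GC correction these were -0.35 and -0.02. Maff then had a log2 fold change of 4.02 but did not pass (edgeR adjusted p = 0.0979), nor did it in library 6 alone against DMSO (2.71, edgeR adjusted p = 0.0613). Atf3 after GC correction was at 2.22 (edgeR adjusted p = 0.191). Without library 6 the list had 4 higher and 2 lower of 13 tested, where 16.5% of genes passed as higher and 17.1% as lower.

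No listed activator or kinase upstream of the family passed edgeR or DESeq2 as higher on the 6 libraries. Of 28 genes, 27 were found and tested. Of these, 0 passed edgeR as higher (0 at an unadjusted p-value under 0.05) and 1 as lower. At an unadjusted p-value under 0.05 edgeR had 5 lower, beside 22.3% of all tested genes in either direction. DESeq2 passed 0 as higher and 3 as lower, beside 4.9% and 6.03% of all genes. The 3 were Crtc1 (adjusted p = 5.13e-05), Rps6ka4 (0.00210) and Srf (0.0312). The median log2 fold change was -0.09. Crtc1, a cAMP-regulated coactivator of CREB, fell from 53.4 to 36.3 CPM on average (log2 fold change -0.56, edgeR adjusted p = 0.0482). Rps6ka4, the kinase MSK2, was at -0.59 (edgeR adjusted p = 0.0687), Srf at -0.45 (edgeR adjusted p = 0.125) and Map2k7, a kinase of the JNK pathway, at -0.31 (edgeR adjusted p = 0.171). All 3 lay below DMSO in every forskolin library before GC correction. Corrected for the GC trend, Crtc1 was at -0.29 (edgeR adjusted p = 0.359), Rps6ka4 at -0.06 (0.822) and Map2k7 at -0.05 (0.830), and Srf changed sign to 0.36 (0.347). Without library 6 the list had 1 higher and 11 lower of 27, beside 16.5% and 17.1% of all genes.

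Among 9 genes of AP-1 turnover, which act on Fos and Jun proteins or on their mRNAs, 0 passed edgeR in either direction. At an unadjusted p-value under 0.05 edgeR had 2 higher, beside 22.3% of all tested genes in either direction. DESeq2 passed 2 higher and 0 lower, beside 4.9% and 6.03% of all genes. Itch, a ubiquitin ligase of Jun proteins, was above DMSO in each forskolin library (log2 fold change 0.36, edgeR adjusted p = 0.158), but at 0.06 with the GC trend removed (edgeR adjusted p = 0.742). Zfp36, which binds AU-rich elements and speeds decay of early response mRNAs, had 10.7, 5.44 and 4.51 CPM with DMSO, 27.0 and 47.6 CPM in libraries 4 and 5 and 7.37 CPM in library 6 (log2 fold change 1.99, edgeR adjusted p = 0.166). Zfp36 and Zfp36l2 (0.70, edgeR adjusted p = 0.230) were thus high in libraries 4 and 5, and in both the library 6 value lay within the DMSO range. Zfp36l1, named after its values were seen, had 36.8 and 36.5 CPM in libraries 4 and 5 and 8.21 CPM in library 6, below the DMSO values of 19.3 to 23.6 CPM as for Junb. The marker sums described for Junb moved with these genes too, and their part was not tested. Without library 6 this list had 4 higher and 0 lower of 9, beside 16.5% and 17.1% of all genes.

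Of genes described in the literature as AP-1 targets, edgeR passed none as higher at 30 min, while DESeq2 passed Spp1 (adjusted p = 0.0260) and Plau (adjusted p = 0.0228). Of 17 listed, 15 were tested, and 0 passed edgeR as higher and 1 as lower. At an unadjusted p-value under 0.05 edgeR had 2 in each direction, beside 22.3% of all tested genes in either direction. DESeq2 passed 2 higher and 1 lower, beside 4.9% and 6.03% of all genes. The median log2 fold change was 0.19. Vgf, a secreted neuronal peptide precursor, fell from 335, 397 and 340 CPM to 137, 140.0 and 150.3 CPM (log2 fold change -1.33, edgeR adjusted p = 0.0204). Its GC content is 64.1%, and without the GC trend the log2 fold change was -0.50 (edgeR adjusted p = 0.402). Spp1 and Plau were high in libraries 4 and 5 only, Spp1 with 57.6 and 27.7 CPM and Plau with 7.19 and 10.2 CPM, against 2.72 and 1.07 CPM in library 6. Those are also the libraries with higher microglia and oligodendrocyte marker sums and lower neuron marker sums, whose part here was not tested. Cdk5 was at -0.39 (edgeR adjusted p = 0.197), or -0.24 with the GC trend removed. Without library 6 the list had 4 higher and 3 lower of 16, beside 16.5% and 17.1% of all genes.

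**Figure D4:**
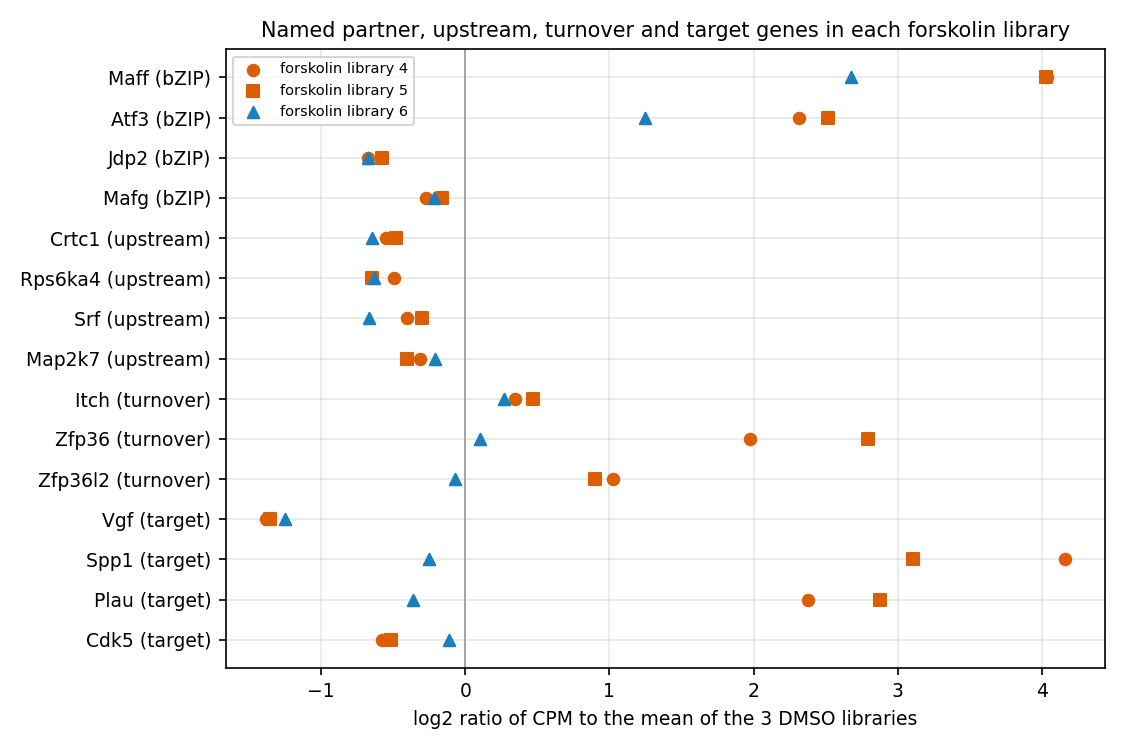
log2 ratio of CPM to the mean of the 3 DMSO libraries for the named partner, upstream, turnover and target genes, with 1 point for each forskolin library (orange for 4 and 5, blue triangle for 6). For Maff and Atf3 all 3 points lie above 0, whereas for Zfp36l2, Spp1 and Plau library 6 lies just below 0 and libraries 4 and 5 lie above it.

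The genes with profiles most like those of Fos and Fosb were found by the root mean square difference in log2 ratio to the DMSO mean over the 6 libraries, among 14899 genes whose mean count was 20 or more. Nearest to Fos was Dusp1, a phosphatase that switches off MAP kinases, at 0.11 log2 units. Its log2 ratios in libraries 4, 5 and 6 were 2.68, 2.72 and 1.99, beside 2.65, 2.77 and 1.76 for Fos. Btg2 followed at 0.12, then Nr4a1 at 0.25, Gm6225 at 0.27 and Gm38257 at 0.28. Fosb had no neighbour as close, since Maff was nearest at 0.43 and Dusp1, Gm38257, Btg2 and 1700016P03Rik followed at 0.64 to 0.70. The measure describes these libraries only.

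The authors' deposited table for forskolin over DMSO, which lists 132 genes with log2 fold changes of 1.5 or more, holds 3 of the 7 members. It lists no gene under that size, so absence of the other 4 shows only that they are not listed as increases of that size. In the authors' deposited table Fos has a log2 fold change of 2.44 with a standard error of 0.23, Fosb 2.75 with 0.32 and Junb 1.53 with 0.27. The standard error for Junb in the authors' deposited table is smaller than the 0.86 that DESeq2 gave here on the 6 deposited libraries, and the adjusted p-value there is 1.59e-06, against 0.335. The fit behind that table is not given in the sources used here.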

How the data were processed

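Whole-number counts per gene symbol were deposited, 1 column per library. Salmon, DESeq and build GRCm38 are named without role or version, per the submitters' processing notes, and the annotation and strand setting are not given in the sources used here. The authors' deposited comparison gives a mean normalised count (signal), a log2 fold change with standard error, a test score and p-values.

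Computation used edgeR 4.0.16, DESeq2 1.42.0 and limma 3.58.1 in R 4.3.3. Genes passed filterByExpr (minimum count 10, total 15), libraries were scaled by TMM, and glmQLFit with glmQLFTest was run over all 16233 genes with Benjamini-Hochberg adjustment and a threshold of 0.05. CPM divides counts by the TMM-scaled library total. Standard errors are the log2 fold change over the square root of F, and 95% intervals use the fit's total degrees of freedom. The script was tested on simulated data. Depth was high enough that, for all members but Fosl1, the spread between libraries and not counting error set the precision. Lengths and GC content came from GENCODE M21 (GRCm38), matched by symbol for 96.7% of rows, and upstream windows from RefSeq (6 of 7 members matched). Of the listed genes, 2 were matched by an older symbol (Mkl2, Rfwd2) and Mrtfa was not analysed here.

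The members, the 9 further gene lists, the tests and the naming rule were chosen with earlier results of these data known. The rule named the 7 members, each called gene and the 3 smallest p-values of the partner, upstream, turnover and target lists, and the 5 genes nearest to Fos and to Fosb (0.5 CPM added before logs). Ccdc85b and Prdx2 were named as overlapping genes. Junos, which overlaps Jun on the opposite strand, had 3 to 14 counts per library. Gm11175, which overlaps Jund on the opposite strand, had 0 counts in every library. Alternatives were DESeq2, limma-voom with and without library quality weights, other scalings and filters, a robust prior, GC trend removal by lowess per library, library 6 alone against DMSO, and each library left out. GC correction of the pool shares was added after seeing the data.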

Additional observations from a re-analysis of the deposited data

How the results depend on the processing

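No paired analysis was possible because the libraries are numbered 1 to 6 across both groups and share no number. The number of members called was 2 with edgeR on 6 libraries, 4 with DESeq2, 5 with library quality weights (beside 41.9% of all genes), 1 with upper-quartile factors, 0 with the GC trend removed, 4 with the GC trend removed and library 6 left out, and 0 for library 6 alone. Leaving out 1 library gave 0 to 5 members, the 5 without library 6 and 0 without any other, where edgeR called 0 genes in all (1945 to 3216 at an unadjusted p-value under 0.05) and 4 members still had an unadjusted p-value under 0.05. Over all genes tested, 245 were called with edgeR, 1775 with DESeq2, 6794 with quality weights, 137 with RLE factors, 102 with upper-quartile factors, 0 with the GC trend removed (1950 at an unadjusted p-value under 0.05), 5419 with it removed and library 6 left out, 94 for library 6 alone, and 0 to 5698 when 1 library was left out. The cause of these differences was not tested. Over the 19 alternatives the log2 fold change ran from 1.80 to 2.81 for Fos (12 past the threshold), 2.97 to 4.17 for Fosb (11), 0.52 to 0.96 for Fosl2 (4), -1.03 to 2.33 for Junb (3) and -1.34 to 0.14 for Jund (3). Signs changed with the GC trend removed for Fosl1 (0.094), Jun (0.15, and 0.14 without library 6) and Jund (0.11, and 0.14 without library 6), and for Junb in library 6 alone (-1.03). The difference in pool share of Junb, -2.68 percentage points, became 2.40 without library 6 (range -6.28 to 2.40 with 1 library left out) and 0.775 with the GC trend removed. The forskolin minus DMSO difference of the other shares and of the Fos to Jun ratio kept its direction with median lengths, with no length, with the GC trend removed and with each library left out. Fosl1 is limited by counting error, at 65 to 101 counts per library.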
